A study of Mus musculus with 2 samples.

Results

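The genes described here are the collagens, taken as every row of the deposited left ventricle expression table whose symbol reads Col, a type number, a and a chain number. The rule found 43 collagen genes among 31920 gene symbols. By the class of assembly their proteins form, 11 are fibrillar collagens, 6 are chains of type IV collagen of basement membranes, 6 are chains of the beaded filament collagen VI and 20 belong to other classes. The study compared the heart of mice lacking LAMP2, a lysosomal membrane protein, with wildtype hearts. Each group was 1 library of polyadenylated RNA from the cardiac left ventricle of male mice of strain 129-SvEv aged 10 weeks: 1 labelled Wildtype and 1 labelled Lamp2 knockout. The sample descriptions name the wildtype library L2_WT and the Lamp2 knockout library L2_HEMI. The labels leave the design of the allele unstated, and do not say whether a library came from 1 animal or a pool. Both groups are otherwise described alike.

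Collagens are secreted triple helices of chains built from repeats in which glycine recurs at a fixed spacing. Fibrillar collagens form the tensile fibers of the interstitium and are made in the heart mainly by fibroblasts. Type IV collagen is a sheet-forming network of the basement membranes around cardiomyocytes and capillaries, and collagen VI links the interstitium to basement membranes. Fibrosis of a diseased heart is commonly followed by type I and type III collagen.

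Gene rows summed to 8410593 reads in the wildtype and 8773820 in the library labelled Lamp2 knockout. Rows of the mitochondrial genome took 26.5% of the former (exact 95% interval 26.4 to 26.5) and 16.2% of the latter (16.2 to 16.3), and every level below, in reads per 1000000 of these gene reads (RPM), is a share of that total. Its part in the ratios was not tested, but each was recomputed with 3 other scalings. The Lamp2 row held 990 and 986 reads, so its level does not check the genotype label, and the second library is called the knockout-labelled library. Cardiomyocyte markers fit the labelled tissue, with 10 of 10 at 5 RPM or more and summed levels of 58316 and 57596 RPM. Of the atrial markers, Bmp10 had 0 reads in both libraries and Myl7 stood at 2.26 and 0.456 RPM, while Nppa, also a ventricular stress gene, stood at 2868 and 10987 RPM. With 1 library a group no genotype test was possible. Ratios are the knockout-labelled level over the wildtype level, with exact 95% intervals that cover counting error only and not the spread between animals.

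The upstream sequences of 3 collagen genes are shown because these genes were lower by at least 2-fold and the bases before their start sites overlap no annotated exon. They come from the RefSeq promoter table of build GRCm38.p6, which had windows for 35 of the 43 collagen genes. Each run is the 120 bases before the start site, 5′ to 3′ on the gene's strand, and capitals mark a TATA box (TATAAA) or a GC box (GGGCGG), searched on both strands. They lie on the plus strand at chr1:45311418-45311537, chr4:47207892-47208011 and chr2:27886305-27886424.
Col3a1: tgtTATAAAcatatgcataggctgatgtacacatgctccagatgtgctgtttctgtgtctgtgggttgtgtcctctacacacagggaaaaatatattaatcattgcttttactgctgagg
Col15a1: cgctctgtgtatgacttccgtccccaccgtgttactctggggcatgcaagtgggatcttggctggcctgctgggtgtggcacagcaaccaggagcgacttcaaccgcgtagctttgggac
Col5a1: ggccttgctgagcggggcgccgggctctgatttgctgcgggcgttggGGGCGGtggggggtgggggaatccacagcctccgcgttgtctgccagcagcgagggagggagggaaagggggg

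The full window, from 250 bases before to 50 after the start, was 37.7% G or C for Col3a1, 52.3% for Col15a1 and 75% for Col5a1. In Col3a1 the letters TATAAA had their first base at position -117 from the start site. Over the 38 windows of collagen genes, 13.2% held a TATA box, 34.2% a CCAAT box (CCAAT) and 60.5% a GC box. Over all 32851 windows of the table the shares were 13.6%, 37.4% and 35.7%. The collagen windows were also richer in G or C, with a median of 59.8% against 52.7%, and the shares were not adjusted for this. A match to these letters is a description of the sequence and not a site of binding.

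Of the 43 collagen genes, 16 reached 5 RPM in at least 1 library and are called measured. They were 6 fibrillar, 4 basement membrane, 3 beaded filament and 3 other collagens. Of these, 13 passed in both libraries, while Col5a2, Col6a3 and Col15a1 passed through the wildtype level alone. A gene that passes in 1 library alone is bound to differ, so the counts below describe the measured genes and are not support for a shift. The measured gene nearest the threshold was Col4a4 at 5.94 RPM, and the nearest one outside it was Col18a1 at 4.56 RPM.

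Col1a1, Col3a1, Col5a1 and Col15a1 were at least 2-fold lower in the knockout-labelled library, by log2 of the ratio after adding 1 RPM to both levels. That is 4 of 16 measured collagen genes, against 2.37% of all 10209 measured genes. None (0 of 16) was at least 2-fold higher, against 3.35% of all measured genes. At a 1.5-fold rule 9 collagen genes were lower, against 7.3% of all measured genes, and Col4a1 and Col4a2 were higher, against 12.8%. The counting interval of the ratio lay wholly below 1 for 12 collagen genes, against 16.8% of all measured genes, and wholly above 1 for Col4a1 and Col4a2, against 35%. The median log2 ratio of the 16 was −0.68, and that of all measured genes was 0.11. The 3 other scalings divide the knockout-labelled levels by factors of 0.12, 0.12 and 0.18 on the log2 scale, and after adding 1 RPM the median of the 16 became −0.78, −0.78 and −0.83. Calls over all measured genes then turned from 342 higher and 242 lower (58.6% higher) to between 37.7% and 44.2% higher. Under each of them Col6a3 joined the 4 lower collagen genes, and the 12 and 2 intervals stayed on their sides of 1.

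**Figure D1:**
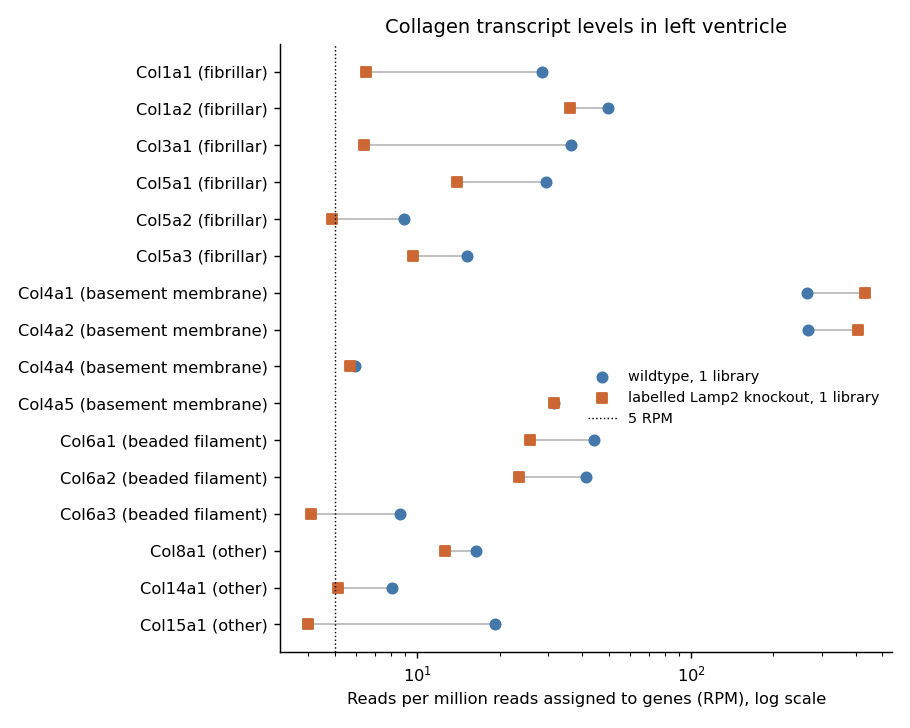
Level of each measured collagen gene in RPM on a log axis, with 1 point for each library and a dotted line at 5 RPM. Col4a1 and Col4a2 stand at 266 to 430 RPM with the knockout-labelled library to the right, the 2 points of Col4a5 coincide near 31.5 RPM, and Col1a1 and Col3a1 have the wildtype point far to the right.

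Among the fibrillar collagens, the chains of types I and III differed in size of ratio although all were lower in the knockout-labelled library. Col1a1, the α1 chain of type I collagen (chromosome 11, 94936270 to 94951856, mm10), had 240 wildtype reads and 57 in the other library. In RPM that is 28.5 and 6.50, and the ratio was 0.228 (0.167 to 0.305). Col3a1, the single chain of type III collagen (chromosome 1, 45311538 to 45349706), was at 36.4 RPM in the wildtype and 6.38 RPM in the knockout-labelled library, a ratio of 0.175 (0.130 to 0.234). It had the lowest ratio among the measured collagen genes. Col1a2, the α2 chain of type I collagen (chromosome 6, 4505697 to 4541543), was at 49.9 and 36.1 RPM, a ratio of 0.724 (0.623 to 0.839). The interval of Col1a2 does not meet those of Col1a1 and Col3a1.

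The minor fibrillar collagen V, which joins type I collagen in mixed fibrils and is needed to start them, lay between these values. Col5a1 (chromosome 2, 27886425 to 28039510) was at 29.5 RPM in the wildtype and 14.0 RPM in the knockout-labelled library, a ratio of 0.475 (0.380 to 0.593). Col5a2 was at 8.92 and 4.90 RPM, a ratio of 0.550 (0.369 to 0.810), and Col5a3 at 15.2 and 9.69 RPM, a ratio of 0.637 (0.478 to 0.844). The intervals of the 3 type V chains overlap one another. The other 5 fibrillar genes were below 5 RPM. Col11a1 and Col24a1 had 0 reads in both libraries, and Col2a1, the main collagen of cartilage, had 0 and 1. Col11a2 had 8 wildtype and 11 knockout-labelled reads, and Col27a1 had 24 and 19.

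Summed over all 11 fibrillar genes, measured or not, the level was 172 RPM in the wildtype and 81.2 RPM in the knockout-labelled library, a ratio of 0.471 (0.430 to 0.516). Without Col1a1 and Col3a1 the ratio of the sum was 0.636 (0.573 to 0.706). The lower fibrillar sum was therefore not limited to these genes, although they carried the largest differences.

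The basement membrane class held the collagen genes with higher levels in the knockout-labelled library. Col4a1 and Col4a2 encode the α1 and α2 chains that make up the common type IV network. Col4a1 (chromosome 8, 11198423 to 11312826) had 2238 wildtype reads and 3777 in the other library, or 266 and 430 RPM. Its ratio was 1.62 (1.53 to 1.71). Col4a2 (chromosome 8, 11312829 to 11449287) had 2252 and 3579 reads, or 268 and 408 RPM, a ratio of 1.52 (1.44 to 1.61). Both lay above the median of all measured genes, and under the 3 other scalings their ratios were 1.42 to 1.49 and 1.34 to 1.40.

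The remaining type IV chains did not follow. Col4a5, which pairs with other chains in the specialised networks of kidney, eye, ear and muscle, was at 31.6 RPM in the wildtype and 31.5 RPM in the other library. Its ratio of 0.995 (0.837 to 1.18) excludes the ratios of Col4a1 and Col4a2. Col4a4 had 50 reads in each library, a ratio of 0.959 (0.635 to 1.45), whose interval covers that of Col4a5 and reaches the lower end of that of Col4a2. Below the threshold, Col4a3 had 32 wildtype and 23 knockout-labelled reads and Col4a6 had 12 and 5. The 4 chains other than Col4a1 and Col4a2 summed to 42.8 and 40.3 RPM, a ratio of 0.943 (0.812 to 1.09), whereas all 6 summed to 577 and 879 RPM, a ratio of 1.52 (1.47 to 1.58).

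Collagen VI genes were lower together in the knockout-labelled library. Col6a1 (chromosome 10, 76708792 to 76726044) was at 44.2 RPM in the wildtype and 25.8 RPM in the other library, a ratio of 0.582 (0.491 to 0.689). Col6a2, the neighbouring gene and partner chain, was at 41.5 and 23.5 RPM, a ratio of 0.566 (0.474 to 0.674). Col6a3, the longest chain of the usual filament, was at 8.68 and 4.10 RPM, a ratio of 0.473 (0.308 to 0.714). The 3 ratios could not be told apart at this depth. Of the chains related to Col6a3, Col6a6 had 38 wildtype and 16 knockout-labelled reads, Col6a5 had 4 and 10, and Col6a4 had 0 and 1. The class summed to 99.4 and 56.4 RPM, a ratio of 0.568 (0.507 to 0.635).

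The 20 collagens of other classes held 3 measured genes. Col15a1, which encodes a proteoglycan-like collagen of the basement membrane zone of muscle and capillaries (chromosome 4, 47208012 to 47313165), had 162 wildtype reads and 35 in the other library. Its level of 19.3 against 3.99 RPM gave a ratio of 0.207 (0.139 to 0.300), which overlaps the intervals of Col1a1 and Col3a1. Its closest relative Col18a1, source of the fragment endostatin, had 35 and 40 reads and stayed under the threshold. Col14a1, a fibril-associated collagen, was at 8.09 and 5.13 RPM, a ratio of 0.634 (0.425 to 0.938). Col8a1, a short-chain network collagen of vessel walls, was at 16.4 and 12.7 RPM, a ratio of 0.771 (0.595 to 0.997). The class as a whole summed to 59.9 and 39.9 RPM, a ratio of 0.666 (0.579 to 0.764).

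**Figure D2:**
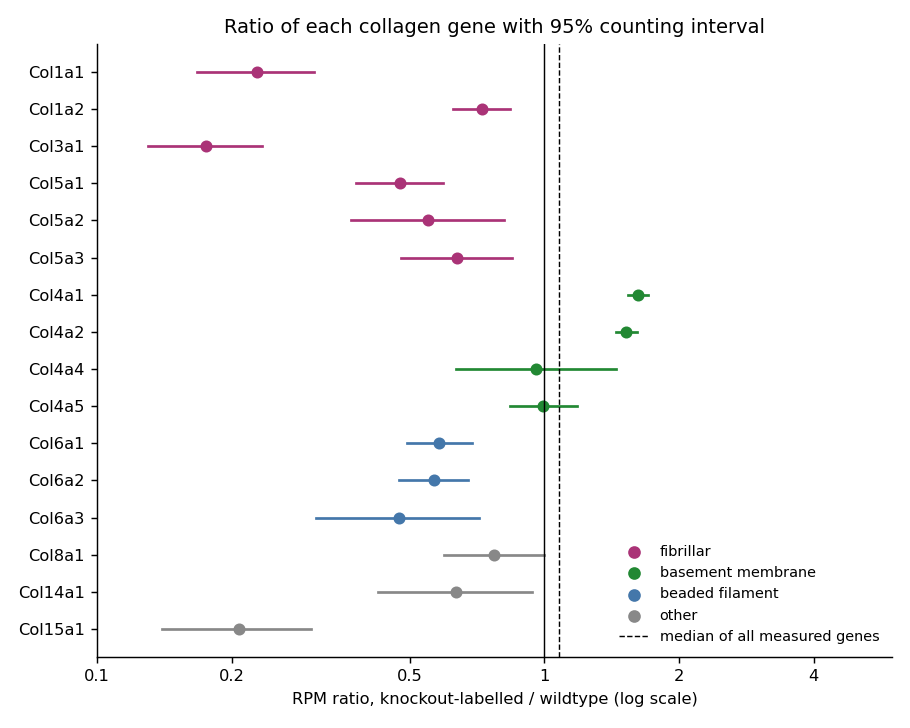
RPM ratio of each measured collagen gene on a log axis, with lines for the exact 95% counting interval and colors for the class. Col4a1 and Col4a2 lie right of both the solid line at 1 and the dashed line of the median gene, Col4a4 and Col4a5 cross the solid line, and the other 12 lie left of it.

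In all, 27 collagen genes were below 5 RPM in both libraries, of which 4 had no read in either: Col9a1, Col11a1, Col24a1 and Col25a1. A gene listed at 0 may stand at up to 3 reads, or 0.357 RPM in the wildtype and 0.342 RPM in the knockout-labelled library. Between 1 and 5 RPM lay 11 genes. Among them the transmembrane collagens Col13a1 and Col23a1 had 25 and 15 wildtype reads and 29 and 24 knockout-labelled reads. The fibril-associated Col16a1 had 24 and 28 reads, and Col22a1, known from muscle-tendon junctions, had 12 and 6.

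Under 1 RPM lay the other 16. Col12a1 had 8 wildtype and 5 knockout-labelled reads, Col20a1 had 6 and 7, and Col8a2, the partner of Col8a1, had 6 and 3. Col7a1, the anchoring fibril collagen of skin, had 4 and 7 reads, and Col17a1, of the hemidesmosome, had 1 and 2. Col9a2, Col9a3, Col10a1, Col19a1 and Col28a1 had 0 wildtype reads and 1 or 2 in the other library, as did Col2a1 and Col6a4 above. The cartilage collagens of types II, IX, X and XI were thus close to or at 0, except for the few reads of Col11a2. Together the 27 genes held 254 and 245 reads, or 30.2 and 27.9 RPM, a ratio of 0.925 (0.773 to 1.11), so no difference in their sum was detectable at this depth.

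The make-up of the collagen reads differed between the libraries in a way that does not depend on how libraries are scaled. Basement membrane collagens took 63.5% of 7639 collagen reads in the wildtype (exact 95% interval 62.4 to 64.6) and 83.2% of 9267 in the knockout-labelled library (82.4 to 84.0). Fibrillar collagens took 19.0% (18.1 to 19.9) and 7.68% (7.15 to 8.24). Beaded filament collagens took 10.9% (10.3 to 11.7) and 5.34% (4.89 to 5.82), and all others 6.60% (6.05 to 7.18) and 3.78% (3.40 to 4.19). For no class did the counting intervals of the 2 libraries overlap. Shares of one total are not separate results, because a larger share of Col4a1 and Col4a2 makes every other share smaller. The 4 other type IV chains took 4.71% (4.25 to 5.21) and 3.82% (3.44 to 4.23). Their ratio of level was 0.943 (0.812 to 1.09).

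**Figure D3:**
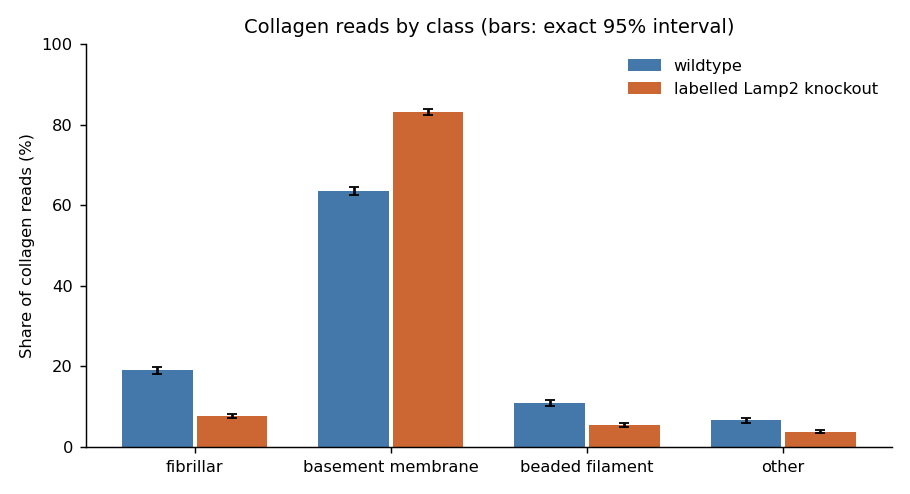
Share of all collagen reads in percent for each class, with 1 bar for each library and exact 95% binomial intervals. The basement membrane bar is taller in the knockout-labelled library, 83.2% against 63.5%, and the other 3 classes have the taller bar in the wildtype.

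Summed over all 43 genes, collagen transcripts stood at 908 RPM in the wildtype and 1056 RPM in the knockout-labelled library, a ratio of 1.16 (1.13 to 1.20). Col4a1 and Col4a2 set this direction. The other 41 genes summed to 374 and 218 RPM, a ratio of 0.582 (0.549 to 0.616), and 0.512 to 0.536 under the other scalings. The ratio of the whole sum fell to 1.07 (1.04 to 1.11) after division by the median ratio and to 1.02 (0.993 to 1.06) with a total that leaves out the mitochondrial rows and the 10 genes with most reads, where the interval holds 1.

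Levels of different genes can be compared only per length, here in RPM per kilobase of merged GENCODE M21 exons. On that scale of level, Col4a2 and Col4a1 led the wildtype library at 40.5 and 35.7 RPM per kb, and the knockout-labelled library at 61.6 and 57.7. Col6a1 followed in the wildtype at 10.1, Col6a2 at 4.98, Col4a5 at 4.71, Col1a1 at 4.35, Col1a2 at 4.02 and Col3a1 at 3.71. The wildtype level of Col4a1 was 8.87 times that of Col1a2 (7.99 to 9.87). With the longest annotated transcript as the length the same comparison gave 4.31 times, because the merged exons of Col1a2 span 12.4 kb and its longest transcript 5.35 kb. The order of the genes below the type IV pair therefore rests on the length used. In the knockout-labelled library Col1a1 stood at 0.990 and Col3a1 at 0.650 RPM per kb, below Col1a2 at 2.91 and Col5a1 at 1.65.

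For chains that assemble into one trimer, a difference between libraries in the share of reads depends on neither scaling nor length. The share itself depends on length. Type I collagen is chiefly a trimer of α1 and α2 chains in which α1 is the more numerous. Col1a1 gave 36.4% of the 660 type I reads in the wildtype (exact 95% interval 32.7 to 40.2) and 15.2% of 374 in the knockout-labelled library (11.8 to 19.3), so the balance between the 2 chains differed beyond counting error. For type IV, Col4a1 gave 49.8% of 4490 reads (48.4 to 51.3) and 51.3% of 7356 (50.2 to 52.5). For type VI, Col6a1 gave 51.6% of 721 reads of Col6a1 and Col6a2 (47.9 to 55.3) and 52.3% of 432 (47.5 to 57.1). In these other pairs the intervals of the 2 libraries overlapped. Equal reads are not equal levels. In the wildtype Col6a1 was 1.07 times Col6a2 by reads, 2.03 times per kilobase of merged exons and 1.28 times with the longest transcript. Per kilobase of merged exons, the level of Col1a1 was 1.08 times that of Col1a2 in the wildtype and 0.340 times in the knockout-labelled library. With the longest transcript as the length these values were 0.515 and 0.162, so the order of the 2 chains in the wildtype rests on the length used, while the lower value in the knockout-labelled library does not.

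**Figure D4:**
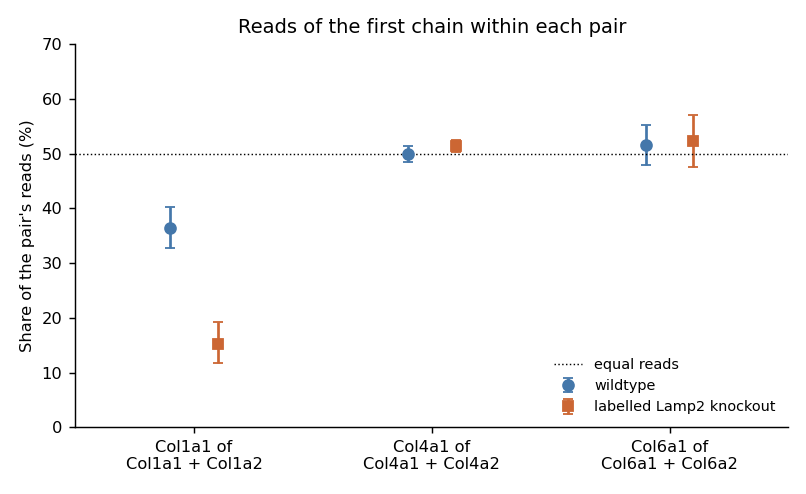
Share of reads in percent that belong to the first chain of 3 collagen pairs in each library, with exact 95% binomial intervals and a dotted line at equal reads. The Col1a1 share is 36.4% in the wildtype and 15.2% in the knockout-labelled library, and the type IV and type VI pairs stay near the line in both. Reads are not divided by length, so the line is not one of equal levels.

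Several collagen genes are neighbours in the genome. Col4a1 and Col4a2 lie head to head with 2 bases between their deposited rows, and their RefSeq start sites are 21 bases apart, so their promoter windows share 78 bases. Those windows are 74.0% and 73.7% G or C, and both hold a CCAAT box and a GC box. Their ratios of 1.62 and 1.52 were close. The other head-to-head pairs were Col4a3 with Col4a4, 71 bases apart, and Col4a5 with Col4a6, 1342 bases apart, each with 1 member under the threshold. Col6a1 and Col6a2 lie on the same strand 85387 bases apart with ratios of 0.582 and 0.566. Col3a1 and Col5a2 lie tail to tail 24624 bases apart, and here the ratios of 0.175 (0.130 to 0.234) and 0.550 (0.369 to 0.810) differed beyond counting error. For the 16 measured genes, rows that overlap them held at most 14 reads in a library, and those overlapping Col3a1 held 0.

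The genes that modify and assemble collagen did not share a direction. The list for synthesis in the endoplasmic reticulum had a median log2 ratio of 0.18, which lay between 0.07 and −0.00 under the other scalings. Of its 17 measured genes, 2 were at least 2-fold lower, against 2.37% of all measured genes, and 0 higher, against 3.35%. The 2 genes were Leprel4, also known as P3h4, part of a lysyl hydroxylation complex, at 26.2 RPM in the wildtype and 11.2 RPM in the other library, and Fkbp10, a procollagen chaperone, at 17.4 and 8.09 RPM. P4ha2, a prolyl hydroxylase subunit, stood at 18.3 and 27.2 RPM, and Fkbp14, another chaperone, stood at 2.85 and 5.47 RPM.

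Procollagen processing and crosslinking held 9 measured genes with a median of −0.01. At least 2-fold lower was 1 gene, against 2.37% of all measured genes, and 1 was higher, against 3.35%. The higher was Lox, the lysyl oxidase that crosslinks fibrillar collagen, at 12.8 RPM in the wildtype and 54.7 RPM in the knockout-labelled library, a ratio of 4.26 (3.45 to 5.30). The lower was Pxdn, encoding peroxidasin, which forms the sulfilimine crosslinks of type IV collagen, at 21.6 and 8.89 RPM, a ratio of 0.411 (0.311 to 0.538). Lox and Pxdn, the 2 largest log2 ratios of the list, stood opposite to the main collagens they act on. Lox was higher beside lower Col1a1 and Col3a1, and Pxdn lower beside higher Col4a1 and Col4a2. The other measured lysyl oxidase genes did not follow Lox. Loxl1 was at 30.8 and 18.1 RPM, Loxl2 at 9.87 and 5.70 RPM and Loxl3 at 6.18 and 6.38 RPM. Below 5 RPM, Loxl4 had 15 and 33 reads. The procollagen N-proteinase gene Adamts2 was at 9.39 and 17.7 RPM.

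Proteoglycans and glycoproteins that sit on collagen fibrils held 13 measured genes. Of these, 3 were at least 2-fold lower, against 2.37% of all measured genes, and 0 higher, against 3.35%. Their median was −0.33, against 0.11 for all measured genes. The lower genes were Lum, Fmod and Ogn. Lum was at 8.92 RPM in the wildtype and 1.71 RPM in the other library, Fmod at 5.71 and 1.82 RPM, and Ogn at 19.9 and 7.86 RPM. Lum and Fmod passed 5 RPM through the wildtype level alone, so they were bound to differ. All 3 encode leucine-rich proteoglycans that bind fibrils. Prelp, of the same family, was at 39.5 and 21.7 RPM. The collagen receptors had 6 measured genes and a median of 0.43. At least 2-fold lower were 0 of them, against 2.37% of all measured genes, and 0 were higher, against 3.35%. Gpr56 had the largest log2 ratio among the receptors, at 71.0 RPM in the wildtype and 116 RPM in the other library. Ddr2, the receptor tyrosine kinase for fibrillar collagen found on fibroblasts, was at 23.5 and 14.9 RPM. Ddr1, its relative that also binds type IV collagen, was at 31.2 and 46.6 RPM, and the integrin β1 gene Itgb1 at 693 and 995 RPM.

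The other basement membrane components did not share the higher level of Col4a1 and Col4a2 as a list. Their 12 measured genes had a median log2 ratio of 0.08, which became −0.04 to −0.10 under the other scalings. At least 2-fold lower was 1 gene, or 2 under each of the other scalings, and 0 were higher. Over all measured genes the deposited scale gave 2.37% lower and 3.35% higher. The listed genes above a log2 ratio of 0 went from 7 to 3 under the other scalings. The lower gene at the deposited scale was the laminin β3 gene Lamb3 at 14.4 RPM in the wildtype and 5.81 RPM in the other library. Nid2, a nidogen that links laminin to type IV collagen, was at 11.5 and 22.0 RPM. Lama5 was at 60.8 and 102.6 RPM, and Lama4, the laminin α4 chain of vessels, at 47.9 and 24.8 RPM.

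Fibroblast markers mostly stood lower, though by differing amounts. Of 11, 10 lay below a log2 ratio of 0, beside 38.8% of all measured genes with a ratio below 1. Under each of the other scalings 0 of them lay above 0, with medians of −0.73 to −0.79. In bulk tissue, fewer cells of a type and less RNA per cell cannot be told apart. Of 11 measured markers, 3 were at least 2-fold lower, against 2.37% of all measured genes, and 0 were higher, with a median of −0.62 against 0.11, and the list shares Dcn, Lum, Dpt and Ddr2 with the lists above. The 3 lower genes were Lum, Islr at 15.2 and 6.50 RPM, and Pi16 at 65.5 and 31.5 RPM, while Dpt stood at 32.2 and 18.1 RPM. Lum, Tcf21 at 8.44 and 4.67 RPM, and Mfap4 at 6.66 and 4.79 RPM passed 5 RPM through the wildtype level alone. Each of these was therefore bound to differ. Summed over the list the level was 1223 RPM in the wildtype and 1137 RPM in the other library, with no marker at 0. The most abundant fibroblast markers and the receptor gene Pdgfra, singled out after their values were seen, differed little: Dcn was at 379 and 393 RPM, Gsn at 632 and 614 RPM, and Pdgfra at 43.6 and 42.9 RPM. The part of fibroblast content in the lower fibrillar collagens was not tested further.

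Vessel cell markers stood beside the type IV genes as follows. The 11 endothelial markers summed to 1396 RPM in the wildtype and 1241 RPM in the knockout-labelled library, with a median log2 ratio of −0.22 and 0 genes 2-fold apart. The 10 mural cell markers, of pericytes and smooth muscle, summed to 1103 and 1003 RPM, also with a median of −0.22 and 0 genes 2-fold apart. Over all measured genes, 2.37% were at least 2-fold lower and 3.35% higher. Single markers differed in direction within both lists, but most lay below a log2 ratio of 0: 7 of 11 endothelial and 8 of 10 mural markers. Above 0 under each of the other scalings were 3 endothelial markers and 1 mural marker. Among the endothelial markers the ratio was 1.42 (1.29 to 1.57) for Tie1, 1.42 (1.12 to 1.80) for Emcn and 1.35 (1.18 to 1.54) for Ly6c1, and 0.626 (0.521 to 0.752) for Tek. Among the mural markers the ratio was 1.63 (1.31 to 2.04) for Cspg4 and 0.597 (0.426 to 0.830) for Tagln. For Kcnj8 it was 0.671 (0.558 to 0.806) and for Acta2 0.714 (0.621 to 0.820). Macrophage markers summed to 199 and 369 RPM. Of 8 measured genes, 2 (C1qa and C1qb) were at least 2-fold higher, against 3.35% of all measured genes. Under each of the other scalings this was 1 of 8. Below 5 RPM, Cx3cr1 had 29 wildtype and 6 knockout-labelled reads, and Emr1 had 8 and 24. Of the chondrocyte and valve markers, Hapln1 and Matn1 had 0 reads in both libraries and Sox9 had 54 and 7 reads. Epicardial and mesothelial markers summed to 27.9 and 16.2 RPM, and Upk3b among them had 80 and 26 reads. Schwann cell markers summed to 50.1 and 57.2 RPM. The part of these cells in the collagen ratios was not tested.

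**Figure D5:**
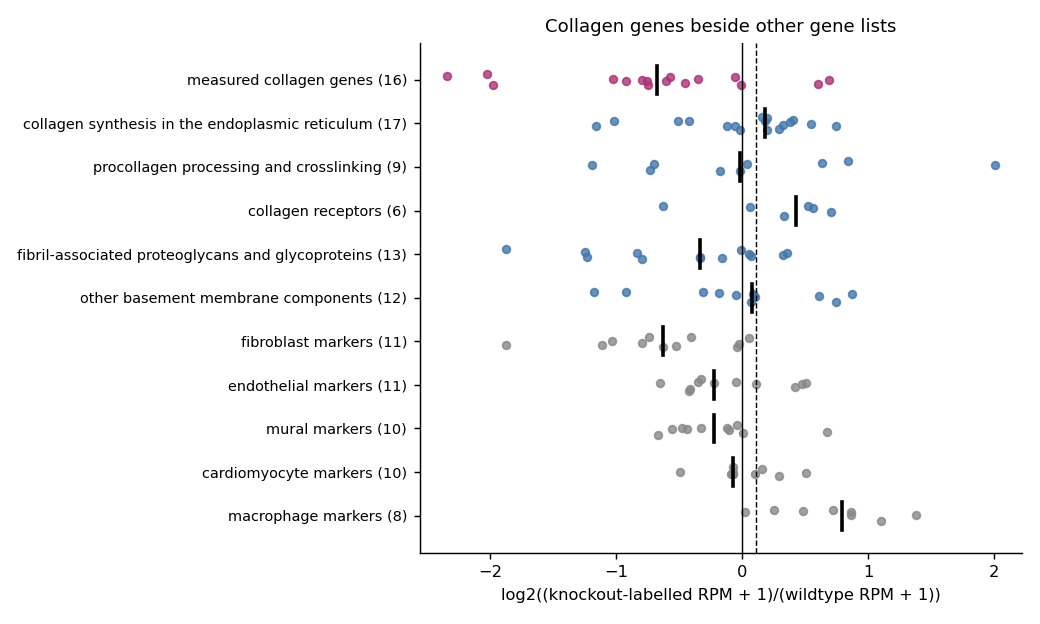
Log2 ratio of every measured gene in each list after adding 1 RPM, with 1 point for each gene, a black bar at the median, a solid line at 0 and a dashed line at the median of all measured genes (0.11). The collagen genes run from −2.34 to 0.69 around a median of −0.68, the fibroblast markers have a median of −0.62, and the synthesis and basement membrane lists sit near the dashed line.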

How the data were processed

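The authors deposited 1 table, with columns for read counts of each gene symbol, RPM, and their own fold and p-value for the pair, per the file headers. The deposited RPM is the count divided by the library's sum over all listed genes, per 1000000. The authors' fold and p-value were not used. STAR, mm10 and GRCm38 appear in the submitters' processing notes. Not given in the sources used here: counting tool, annotation, strand use and handling of multiply mapped reads. Deposited starts count from 0 and are printed plus 1.

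The members and lists were chosen with earlier results of these data known. Genes at 5 RPM or more in either library were measured, and those with log2((knockout-labelled RPM + 1)/(wildtype RPM + 1)) of at least 1 in size counted as 2-fold higher or lower. Intervals are Clopper-Pearson 95%. Because PCR copies were not marked, they and the floor of 3 reads cover counting error only. At the totals of 8410593 and 8773820 reads, precision is low at the minimum, where 43 reads gave 4.90 RPM for Col5a2. Every measured collagen gene was named, and from the other lists up to 4 genes with the largest log2 ratio, defining markers, and others marked as chosen later. Lengths come from GENCODE M21. Scalings used the median ratio, a trimmed mean of log ratios (30% of ratios and 5% of levels at each end), or the total without mitochondrial rows and the 10 most abundant genes. Python 3.11.15, numpy 2.4.6, pandas 2.3.3, scipy 1.17.1 and matplotlib 3.10.9 were used.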

Additional observations from a re-analysis of the deposited data

How the results depend on the processing

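With 1 library a group, no replicate could be left out. No paired analysis was possible because each group holds 1 library. At a 1.5-fold rule the collagen genes called were 9 lower and 2 higher, in place of 4 and 0, against 7.3% and 12.8% of all measured genes. The other planned settings gave 3 to 5 lower and 0 higher. The median log2 ratio was 0 with no minimum level, where all 27 genes below 5 RPM enter, 4 of them without reads. It was −0.46 at a minimum of 1 RPM and −0.48 with 5 RPM added to both levels. Bins of transcript length and GC content, added after the data were seen, gave −0.77. The summed fibrillar ratio was 0.415 with a total that leaves out the mitochondrial rows and the 10 genes with most reads (the reduced total), 0.368 without Col1a2, and 0.636 without Col1a1 and Col3a1, a choice also added later. The basement membrane ratio was 1.41 after division by the median ratio, 1.40 with the trimmed mean, 1.34 with the reduced total and 1.44 without Col4a1. The beaded filament ratio was 0.500 with the reduced total. Col4a1 over Col1a2 in the wildtype was 4.31 with the longest transcript as length. For all 16 measured genes, the interval stayed on its side of 1, or held 1, under the 3 scalings and the length and GC bins. Depth limits the 27 genes below 5 RPM, for which no single ratio is given.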
